A study of Saccharomyces cerevisiae with 16 samples.

Results

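The cell wall of budding yeast was followed here through 10 genes, 8 for wall proteins and 2 for the catalytic subunits of glucan synthase. They were taken by name as rows of the count table, which holds 7126 features, and all 10 were among the 6206 genes that passed the filter on low counts. The members are PIR1 (YKL164C), PIR3 (YKL163W), HSP150 (YJL159W), CIS3 (YJL158C), CWP1 (YKL096W), CWP2 (YKL096W-A), CRH1 (YGR189C), PST1 (YDR055W), FKS1 (YLR342W) and FKS2 (YGR032W, also called GSC2). RNA-seq was performed on strain YJB622, a MATa haploid of BY4741 descent with alleles crz1∆::KanMx and hog1∆::LEU2, a tagged allele Hcm1-3HA-HIS3, and the auxotrophies ura3∆0, leu2∆0, his3∆0 and met15∆0. Cultures received FK506 at 1 μg/ml, an inhibitor of the calcium-activated phosphatase calcineurin (CN), or ET buffer as the control, and 200 mM CaCl2 was added 15 minutes later. Libraries were made at 0, 10, 30 and 60 minutes of CaCl2, so FK506 and ET cells form 8 groups with 2 libraries in each, from duplicate time courses. Every group thus lacks Crz1, a transcription factor activated by CN, and Hog1, the stress-activated MAP kinase, so neither deletion is itself compared. The cultures were asynchronous, and in bulk RNA fewer cells in a given cell cycle stage cannot be told apart from less RNA per cell.

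The yeast wall is a mesh of β-1,3-glucan fibres, made at the plasma membrane by glucan synthase, to which β-1,6-glucan, chitin and mannoproteins are attached. Fks1 and Fks2 are alternative catalytic subunits of that enzyme: Fks1 is the main form in growing cells, and FKS2 is known in wild-type cells as a gene induced by calcium through CN and Crz1. Proteins of the PIR family (Pir1, Hsp150, Pir3 and Cis3) are bound directly to β-1,3-glucan, whereas Cwp1 and Cwp2 reach the wall by way of a lipid anchor. Damage to the wall is signalled by the cell wall integrity cascade to the MAP kinase Slt2, which activates the transcription factor Rlm1.

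Of the 10 genes, 4 had a match to the Rlm1 site in the 1000 bases before the start codon, against 3.10% of the 5996 promoters of that length in build R64. These stretches are shown because the 4 genes share the site and did not follow a common course. Each is printed 5′ to 3′ on the strand of its gene, with the match in capitals.
PIR3, chrXI:144105-144146, plus strand: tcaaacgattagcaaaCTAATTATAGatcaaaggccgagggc
HSP150, chrX:120210-120251, plus strand: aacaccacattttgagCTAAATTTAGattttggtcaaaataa
CWP1, chrXI:260730-260771, plus strand: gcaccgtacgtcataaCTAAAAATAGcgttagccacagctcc
PST1, chrIV:563206-563247, plus strand: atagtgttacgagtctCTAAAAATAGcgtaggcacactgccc
The match began 280 bases before the start codon of PIR3, 223 before that of HSP150, 386 before that of CWP1 and 305 before that of PST1, and the pattern searched reads alike on both strands. CWP1 and PST1 carry identical letters in it. The stress element CCCCT was found, on either strand, before 6 of the 10 genes (PIR1, PIR3, HSP150, CIS3, CWP1 and CWP2) and before 55.0% of all promoters. GNGGCNCA, a looser form of the Crz1 site, was found before CWP2, CRH1 and PST1 and before 16.2% of all promoters. It allows any base at position 6, where the site is usually given with G or T. That base was G in the CWP2 match, T in the CRH1 match and C in the PST1 match, which therefore departs from the usual site. The share over all promoters is for the looser form. The CWP2 match lay inside the reading frame YKL097C and the CRH1 match inside the non-coding gene YNCG0042C. CNCGAAA, the core of the SBF site, stood before 6 genes (CIS3, CWP1, CWP2, CRH1, FKS1 and FKS2) and before 34.2% of all promoters. A match of this kind describes letters in a window and is not a measurement of binding. The lack of a match covers only the letters searched.

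Each member has a single coding exon and overlaps no other annotated gene in build R64, the build of the deposited table. PIR1 (chromosome XI, 141794 to 142819, minus strand) and PIR3 (chromosome XI, 144401 to 145378, plus strand) diverge from a region of 1581 bases. HSP150 (chromosome X, 120449 to 121690, plus strand) and CIS3 (chromosome X, 122265 to 122948, minus strand) point towards each other across 574 bases. CWP2 (chromosome XI, 259253 to 259531, plus strand) lies 1600 bases before CWP1 (chromosome XI, 261132 to 261851, plus strand). CRH1 is at chromosome VII, 876669 to 878192, minus strand, and PST1 at chromosome IV, 563527 to 564861, plus strand. FKS1 (chromosome XII, 809997 to 815627, plus strand) and FKS2 (chromosome VII, 548264 to 553951, plus strand) are 80.8% identical over 5607 aligned bases of coding sequence. No 50-base word, the length of the sequenced reads, was shared between them, and their longest common run was 38 bases.
Longest run shared by FKS2 (chrVII:550715-550752) and FKS1 (chrXII:812391-812428): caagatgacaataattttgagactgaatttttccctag
The PIR genes are less distinct, since 10.8% of the 50-base words of PIR3, 7.38% of those of HSP150, 7.16% of those of PIR1 and 2.52% of those of CIS3 occur more than once in the genome. Some of these recur only within the same gene, and the share found elsewhere was 6.46% for PIR3, 6.14% for PIR1, 2.52% for CIS3 and 1.34% for HSP150. Their counts are uncertain, but these shares do not bound the error, since PIR1 had 2311 to 5390 counts per library and PIR3 31 to 248. How reads that match both genes were counted was not established. The run below is common to PIR3 and PIR1, and a read from within it cannot be assigned to either gene.
Longest run shared by PIR3 (chrXI:144439-144519, plus strand) and PIR1 (chrXI:142701-142781, minus strand): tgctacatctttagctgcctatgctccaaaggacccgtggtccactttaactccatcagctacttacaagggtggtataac
For the other 6 genes no 50-base word occurred more than once.

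The libraries held 11221758 to 11970166 counts. HOG1 had 0 counts in all 16 libraries and CRZ1 had 0 or 1, as the strain's genotype states. The receptor gene STE2, a MATa marker, was at 923 to 1508 CPM (counts per 1000000 counts of a library, after TMM scaling between libraries). The α-specific receptor gene STE3 was at 16.4 to 46.0 CPM. The other mating-type genes read were less cleanly apart. The α-specific SAG1, at 51.4 to 89.6 CPM, overlapped the MATa-specific MFA2, at 81.5 to 181.5 CPM. The MATa-specific STE6, MFA1 and BAR1 stayed at 95.8 CPM or above. The α-specific MF(ALPHA)1 and MF(ALPHA)2 stayed at 23.9 CPM or below. The share of counts taken by SCR1, a non-coding RNA of the signal recognition particle, was 5.76 to 6.45% in FK506 and 7.47 to 8.67% in ET libraries at 60 minutes, and 4.03 to 4.89% in all libraries at 0 minutes. Its part in the changes below was not tested. Values are given as TMM-scaled CPM unless raw totals are named.

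Before CaCl2 the members spanned a wide range of transcript level per length. CWP2 was the most abundant, at 6093 ± 852 CPM per kb in FK506 and 6054 ± 259 in ET cells (SD, n = 2 each). HSP150 (1063 ± 63.4 in FK506 and 1036 ± 77.5 in ET), CIS3 (894 ± 66.8 and 860 ± 58.2), FKS1 (600.4 ± 21.6 and 576 ± 6.21) and PIR1 (412 ± 41.4 and 434 ± 47.7) followed. CRH1 stood at 145 ± 5.49 and 140.2 ± 8.80, PST1 at 126 ± 22.3 and 114 ± 17.8, and CWP1 at 91.5 ± 16.6 and 76.9 ± 17.1 CPM per kb. FKS2 was at 26.3 ± 2.53 and 25.6 ± 0.514, and PIR3 was lowest at 5.08 ± 0.801 and 4.06 ± 1.63 CPM per kb. In FK506 cells the libraries of CRH1 and PST1 overlapped, and no other neighbours in this order did so within a pre-treatment.

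Before CaCl2 few genes of any kind were called between the pre-treatments. At 0 minutes 0 of the 10 members was called between FK506 and ET cells by limma, against 0.661% of all genes tested that were higher and 0.902% that were lower in FK506. A single member, CWP1, had an unadjusted p under 0.05, at a log2 difference of 0.25 (adjusted p = 0.134). edgeR and DESeq2 also called 0 members. The fitted log2 differences ran from -0.08 for PIR1 to 0.40 for PIR3, and the PIR3 value had a 95% interval of -0.32 to 1.13. CWP1 was higher in FK506 in both same-numbered pairs of replicates, though the libraries of the pre-treatments overlapped. The FKS1 libraries did not overlap, at 3295 and 3467 CPM in FK506 and 3216 and 3265 CPM in ET cells (log2 0.06, not called).

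**Figure D1:**
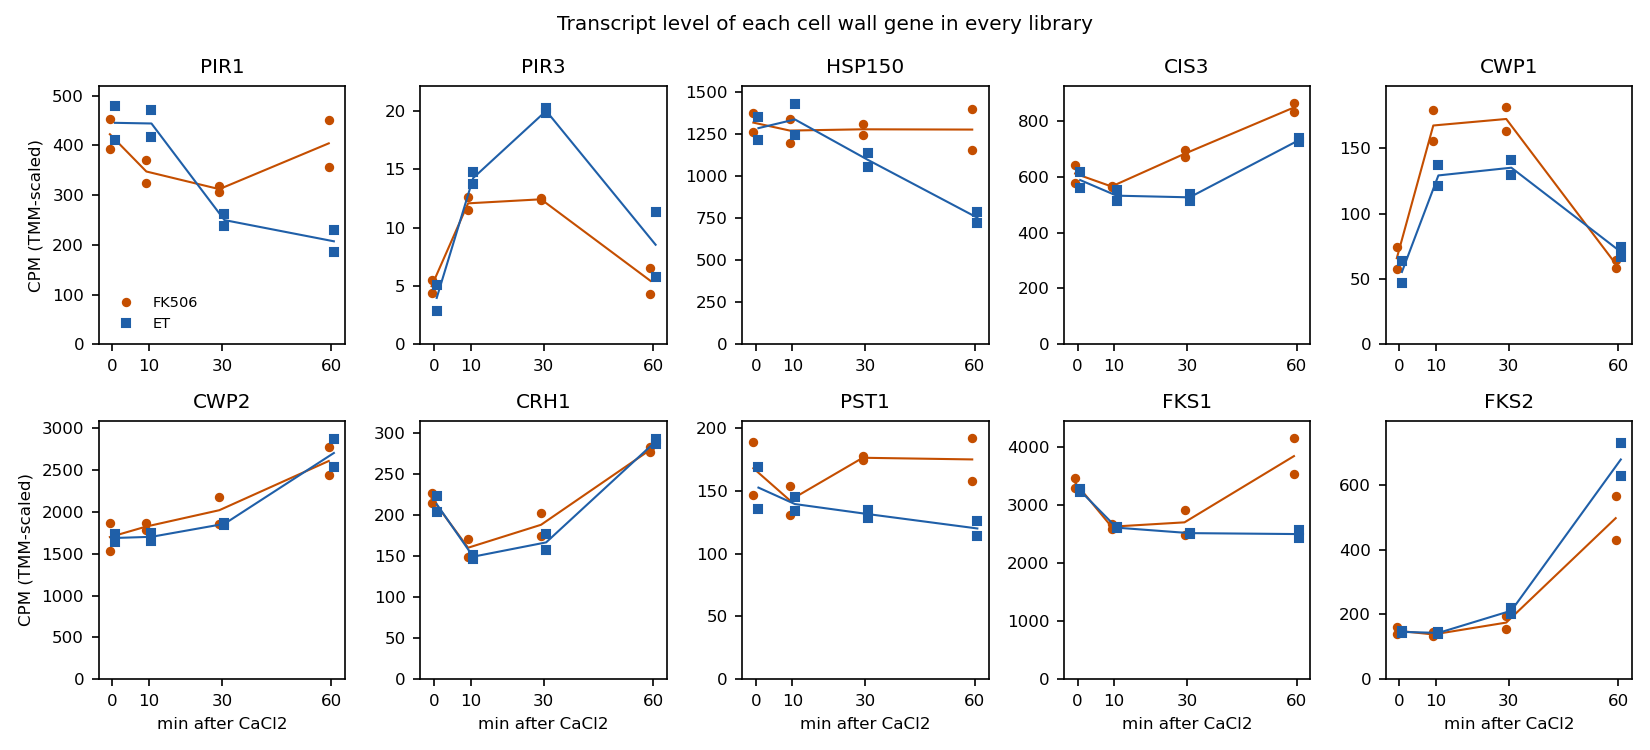
TMM-scaled CPM (vertical axes, from 0) of each gene against minutes after CaCl2, with 1 point per library (circles FK506, squares ET, drawn slightly apart) and lines through the means of the 2 libraries. FKS2 climbs steeply between 30 and 60 minutes in both pre-treatments, PIR3 and CWP1 peak at 10 to 30 minutes, and at 60 minutes both FK506 libraries lie above both ET libraries for PIR1, HSP150, CIS3, FKS1 and PST1.

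The glucan synthase genes followed different courses. FKS2 was the member with the largest rise at 60 minutes: it had 430 and 564 CPM in FK506 cells at 60 minutes, against 139 and 160 CPM in FK506 cells at 0 minutes. In ET cells it had 627 and 730 CPM at 60 minutes, against 144 and 148 CPM at 0 minutes. The libraries at 60 minutes thus stood well apart from those at 0 minutes under both pre-treatments, and the FK506 libraries lay below both ET libraries. The rise was 3.30-fold in FK506 cells (log2 1.72 ± 0.08 SE, adjusted p = 6.68e-11) and 4.64-fold in ET cells (log2 2.22 ± 0.08, adjusted p = 8.69e-14). The FK506 change was smaller than the ET change by a log2 difference of -0.49 (95% interval -0.73 to -0.25, adjusted p = 0.00147). FKS2 was not called at 10 minutes, with 132 and 144 CPM in FK506 and 140.3 and 145 CPM in ET cells. At 30 minutes it had risen to 155 and 194 CPM in FK506 cells (log2 0.22, adjusted p = 0.0400) and to 202 and 221 CPM in ET cells (log2 0.53, adjusted p = 2.32e-05). The difference between pre-treatments at 30 minutes was -0.32 and not called by limma (adjusted p = 0.0541), but was by edgeR (0.0324) and DESeq2 (0.0461). The FK506 call at 30 minutes was lost in 3 of the 16 fits that left out 1 library, those without FK506 0 min replicate 1, FK506 0 min replicate 2 or FK506 30 min replicate 2 (log2 0.19, 0.25 and 0.14), and in the fit without the replicate block (adjusted p = 0.114).

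FKS1 took an early fall that only one pre-treatment kept. It had 2578 and 2665 CPM in FK506 and 2617 and 2593 CPM in ET cells at 10 minutes, against 3295 and 3467 CPM in FK506 and 3216 and 3265 CPM in ET cells at 0 minutes. The log2 change was -0.37 in FK506 (adjusted p = 0.00012) and -0.32 in ET cells (adjusted p = 0.000456), and in both the libraries at 10 minutes lay below those at 0 minutes. At 30 minutes FKS1 was at 2486 and 2907 CPM in FK506 and 2518 and 2503 CPM in ET cells, and both were still called lower (log2 -0.33 and -0.37). At 60 minutes the FK506 libraries had 3526 and 4145 CPM and the ET libraries 2431 and 2558 CPM. The change from 0 minutes was then 0.18 in FK506 cells (adjusted p = 0.0438) and -0.38 in ET cells (adjusted p = 5.22e-05). The difference between these changes was 0.56 (95% interval 0.37 to 0.75, adjusted p = 5.45e-05), positive in both same-numbered pairs of replicates. The small FK506 rise was lost in 7 of the 16 fits that left out 1 library (without FK506 60 min replicate 2, log2 0.07) and with DESeq2, RLE factors or no replicate block. On raw library totals the FK506 fall at 30 minutes (log2 -0.13) and the ET fall at 60 minutes (log2 -0.14) were not called. The difference between pre-treatments was called in all 16 of those fits, with log2 values of 0.41 to 0.66.

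Since both genes are read in the same library, the ratio of FKS2 to FKS1 counts per kb needs no scaling between libraries. It was 0.121 and 0.135 in FK506 and 0.255 and 0.283 in ET libraries at 60 minutes, against 0.0419 and 0.0456 in FK506 and 0.0443 and 0.0448 in ET libraries at 0 minutes. At 60 minutes FKS2 therefore made up 10.8 and 11.9% of the glucan synthase transcripts per length in FK506 cells, and 20.3 and 22.0% in ET cells. The ratio was 0.0506 and 0.0535 in FK506 and 0.0531 and 0.0554 in ET libraries at 10 minutes, where the pre-treatments overlapped. At 30 minutes it was 0.0618 and 0.0660 in FK506 and 0.0792 and 0.0874 in ET libraries, and they no longer overlapped.

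**Figure D2:**
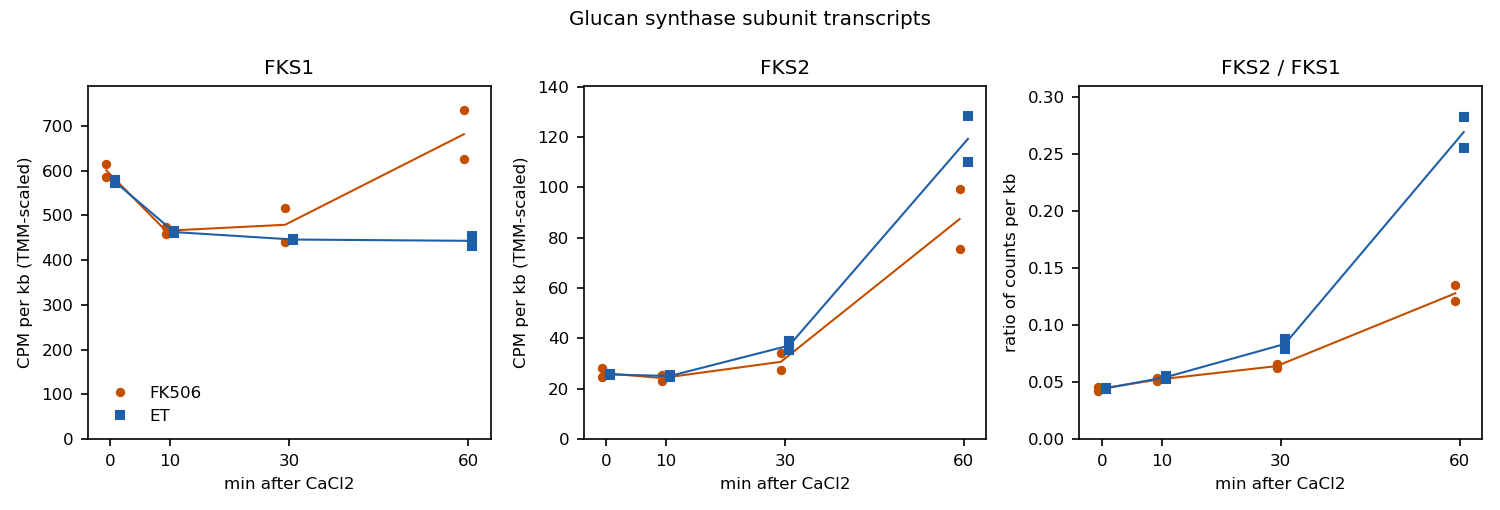
FKS1 and FKS2 in TMM-scaled CPM per kb, and the within-library ratio of FKS2 to FKS1 counts per kb, against minutes after CaCl2, with 1 point per library (circles FK506, squares ET) and lines through the means. At 60 minutes the ratio is 0.121 and 0.135 in the FK506 libraries and 0.255 and 0.283 in the ET libraries.

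Within the PIR family PIR1 and HSP150 fell late in ET cells. PIR1 had 452 and 356 CPM in FK506 and 185 and 229 CPM in ET cells at 60 minutes, against 392 and 452 CPM in FK506 and 411 and 480 CPM in ET cells at 0 minutes. The ET libraries at 60 minutes stood below every other library of PIR1. The log2 change at 60 minutes was -0.07 in FK506 cells (adjusted p = 0.670) and -1.11 ± 0.11 in ET cells (adjusted p = 1.1e-07), a difference of 1.03 (95% interval 0.70 to 1.36, adjusted p = 2.53e-05). The duplicates of FK506 cells at 60 minutes went apart: without FK506 60 min replicate 1 the FK506 change was -0.35 (adjusted p = 0.00173), and without replicate 2 it was 0.21 (adjusted p = 0.0387). The difference between pre-treatments was called in all 16 fits that left out 1 library, at 0.76 to 1.27. At 30 minutes PIR1 was lower in FK506 cells (306 and 317 CPM, log2 -0.43, adjusted p = 0.00304) and in ET cells (238 and 262 CPM, log2 -0.83, adjusted p = 3.46e-06). The difference of 0.40 was not called by limma (adjusted p = 0.0624), but was by edgeR (0.0460) and DESeq2 (0.0290). On raw library totals the FK506 fall at 30 minutes was -0.23 and not called (adjusted p = 0.0730). At 10 minutes PIR1 was called lower in FK506 cells, at 324 and 370 CPM (log2 -0.28, adjusted p = 0.0391), and not in ET cells, at 418 and 470 CPM. That FK506 call was lost in 7 of the 16 fits that left out 1 library, with p up to 0.136 without FK506 0 min replicate 2, on raw library totals (0.0903) and without the filter (0.0652), and the difference at 10 minutes had an interval of -0.60 to 0.05.

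HSP150, a secreted glycoprotein first known as a heat shock protein and also called Pir2, also fell late in ET cells, and was not called in FK506 cells at any time. It had 1401 and 1156 CPM in FK506 and 721 and 787 CPM in ET cells at 60 minutes, against 1264 and 1376 CPM in FK506 and 1219 and 1355 CPM in ET cells at 0 minutes. The FK506 libraries overlapped those at 0 minutes (log2 -0.05, adjusted p = 0.717), whereas the ET libraries did not (log2 -0.77, adjusted p = 1.01e-06). The difference was 0.72 (95% interval 0.44 to 0.99, adjusted p = 0.000166). HSP150 was called lower in FK506 cells without FK506 60 min replicate 1 (log2 -0.26, adjusted p = 0.0132). The ET call at 30 minutes (1054 and 1141 CPM, log2 -0.23, adjusted p = 0.0360) was lost in 5 of the 16 fits that left out 1 library, with the smallest change without ET 30 min replicate 1 (log2 -0.12). It was also lost on raw library totals (log2 -0.03) and with limma without the filter (log2 -0.19, adjusted p = 0.0830).

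CIS3, also called Pir4, rose under both pre-treatments. It had 864 and 833 CPM in FK506 and 740 and 724 CPM in ET cells at 60 minutes, against 644 and 579 CPM in FK506 and 617 and 560 CPM in ET cells at 0 minutes. All libraries at 60 minutes were above all libraries at 0 minutes, and the changes were 0.47 in FK506 (adjusted p = 2.22e-06) and 0.32 in ET cells (adjusted p = 5.51e-05). Both FK506 libraries lay above both ET libraries at 60 minutes, but the difference between the changes was 0.16 and not called (95% interval -0.0033 to 0.32, adjusted p = 0.0948). CIS3 was the member that limma called between pre-treatments at 30 minutes. It had 695 and 670 CPM in FK506 and 514 and 539 CPM in ET cells at that time, with changes of 0.16 and -0.16 from 0 minutes. The difference was 0.32 (95% interval 0.16 to 0.48, adjusted p = 0.00469), positive in both same-numbered pairs of replicates. The small ET falls at 10 and 30 minutes were lost in 8 and 5 of the 16 fits that left out 1 library, and at 30 minutes the ET change was 0.04 on raw library totals and -0.06 without ET 30 min replicate 1. The FK506 rise at 30 minutes was lost without FK506 0 min replicate 2 (log2 0.11) or FK506 30 min replicate 1 (log2 0.16).

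PIR3 was the rarest member, at 31 to 248 counts per library, and peaked early. It had 12.6 and 11.5 CPM in FK506 and 13.7 and 14.8 CPM in ET cells at 10 minutes, against 5.53 and 4.42 CPM in FK506 and 2.85 and 5.10 CPM in ET cells at 0 minutes. At 30 minutes it had 12.5 and 12.3 CPM in FK506 and 20.2 and 19.8 CPM in ET cells. The libraries at both times lay above all those at 0 minutes, and the changes at 30 minutes were 1.31 in FK506 (adjusted p = 0.000846) and 2.40 in ET cells (adjusted p = 1.39e-06). At 60 minutes PIR3 was at 6.54 and 4.32 CPM in FK506 cells (log2 0.11, not called) and at 11.3 and 5.74 CPM in ET cells (log2 1.11, adjusted p = 0.00605). The ET call at 60 minutes was lost without ET 0 min replicate 1, the library with 31 counts (log2 0.60, adjusted p = 0.154), and without ET 60 min replicate 1 (log2 0.71). The difference between pre-treatments was -1.09 at 30 minutes (95% interval -1.95 to -0.22, adjusted p = 0.0516). At 60 minutes the FK506 change was 0.499 times the ET change on the linear scale (log2 interval -1.98 to -0.03, adjusted p = 0.0801). Neither was called by limma, but DESeq2 called the difference at 60 minutes (log2 -0.97, adjusted p = 0.0489), as did raw library totals at 30 and 60 minutes and the fit without the correlation at 30 minutes. Leaving out 1 library moved them from -1.56 (without ET 0 min replicate 2) to -0.56 and from -1.48 (without the same library) to -0.49, and 4 of those 16 fits at 30 minutes and 2 at 60 minutes passed the threshold.

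The anchored mannoproteins CWP1 and CWP2 followed different courses. CWP1 had 180 and 155 CPM in FK506 and 138 and 121 CPM in ET cells at 10 minutes, against 74.4 and 57.4 CPM in FK506 and 64.1 and 46.7 CPM in ET cells at 0 minutes. It stayed high at 30 minutes, at 182 and 163 CPM in FK506 and 141 and 129 CPM in ET cells. The rise at 10 minutes was 2.55-fold in FK506 (adjusted p = 3.73e-10) and 2.35-fold in ET cells (adjusted p = 1.79e-09), and at 30 minutes 2.62-fold and 2.46-fold. At 60 minutes CWP1 was at 64.9 and 58.3 CPM in FK506 and at 74.6 and 66.9 CPM in ET cells. FK506 cells were then back among their own libraries at 0 minutes (log2 -0.10, adjusted p = 0.442), whereas ET cells were still called higher (log2 0.36, adjusted p = 0.00114). The difference was -0.46 (95% interval -0.71 to -0.20, adjusted p = 0.00388), negative in both same-numbered pairs of replicates. It stayed called in all 16 fits that left out 1 library. CWP1 had differed by 0.25 between FK506 and ET cells at 0 minutes, as given above, and every change here is taken from that level.

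CWP2, whose product is among the most abundant proteins of the wall, rose late and by a like amount. It had 2774 and 2447 CPM in FK506 and 2877 and 2536 CPM in ET cells at 60 minutes, against 1868 and 1532 CPM in FK506 and 1740 and 1638 CPM in ET cells at 0 minutes. The rise was 1.54-fold in FK506 (log2 0.62, adjusted p = 3.3e-07) and 1.60-fold in ET cells (log2 0.68, adjusted p = 1.97e-08). The difference of -0.06 had a 95% interval of -0.24 to 0.12. The rise at 30 minutes was called in FK506 cells (log2 0.25, adjusted p = 0.00223; 0.16 and not called without FK506 0 min replicate 2). In ET cells it missed the threshold (log2 0.14, adjusted p = 0.0549) but passed it in 7 of the 16 fits that left out 1 library, at up to 0.27 without ET 30 min replicate 1. It also passed with edgeR (adjusted p = 0.0473), RLE factors, fixed time courses, no correlation and no filter, and was 0.34 on raw library totals (adjusted p = 5.14e-05).

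CRH1, a transglycosylase that links chitin to glucan, dipped and then rose. It had 149 and 172 CPM in FK506 and 147 and 152 CPM in ET cells at 10 minutes, against 215 and 227 CPM in FK506 and 204 and 223 CPM in ET cells at 0 minutes. At 60 minutes it had 283 and 278 CPM in FK506 and 287 and 293 CPM in ET cells. All libraries at 10 minutes lay below, and all at 60 minutes above, those at 0 minutes. The changes were -0.46 in FK506 and -0.51 in ET cells at 10 minutes (adjusted p = 1.14e-05 and 3.53e-06), and 0.34 and 0.44 at 60 minutes (adjusted p = 0.000416 and 6.39e-06). The differences between pre-treatments were 0.05, 0.12 and -0.10 at 10, 30 and 60 minutes, with 95% intervals of -0.14 to 0.25, -0.07 to 0.32 and -0.29 to 0.09. None was called by limma, but on raw library totals the difference at 60 minutes was -0.21 and called (adjusted p = 0.0490). At 30 minutes the gene was called lower in both (log2 -0.23 and -0.36), but the FK506 call was lost without FK506 30 min replicate 1 (log2 -0.17) and on raw library totals (log2 -0.03).

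PST1, a GPI-anchored protein related to Ecm33, was the least settled member. It had 192 and 158 CPM in FK506 and 114 and 126 CPM in ET cells at 60 minutes, against 147 and 189 CPM in FK506 and 136 and 170 CPM in ET cells at 0 minutes. The FK506 libraries at 60 minutes overlapped those at 0 minutes (log2 0.06, adjusted p = 0.733), and the ET libraries lay below them (log2 -0.34, adjusted p = 0.0141). The ET call was lost without ET 0 min replicate 2 (log2 -0.22) or ET 60 min replicate 1 (log2 -0.28). The difference of 0.40 (95% interval 0.06 to 0.74, adjusted p = 0.0438) was lost in 10 of the 16 fits that left out 1 library, with 0.20 without FK506 60 min replicate 1 as the lowest value. On raw library totals the difference was 0.29 and the ET change -0.10, and neither was called. The limma call of the difference was also lost with RLE factors (adjusted p = 0.0508), fixed time courses (0.0524), no replicate block (0.0577) and no filter (0.0666). At 10 and 30 minutes limma called PST1 under neither pre-treatment. Raw library totals called it higher in FK506 cells at 30 minutes (log2 0.28 in place of 0.08, adjusted p = 0.0365). It was called lower in FK506 cells at 10 minutes without FK506 0 min replicate 1 (log2 -0.36) or FK506 60 min replicate 1 (log2 -0.23), and in ET cells at 30 minutes without ET 0 min replicate 1 (log2 -0.33) or FK506 60 min replicate 1 (log2 -0.21).

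**Figure D3:**
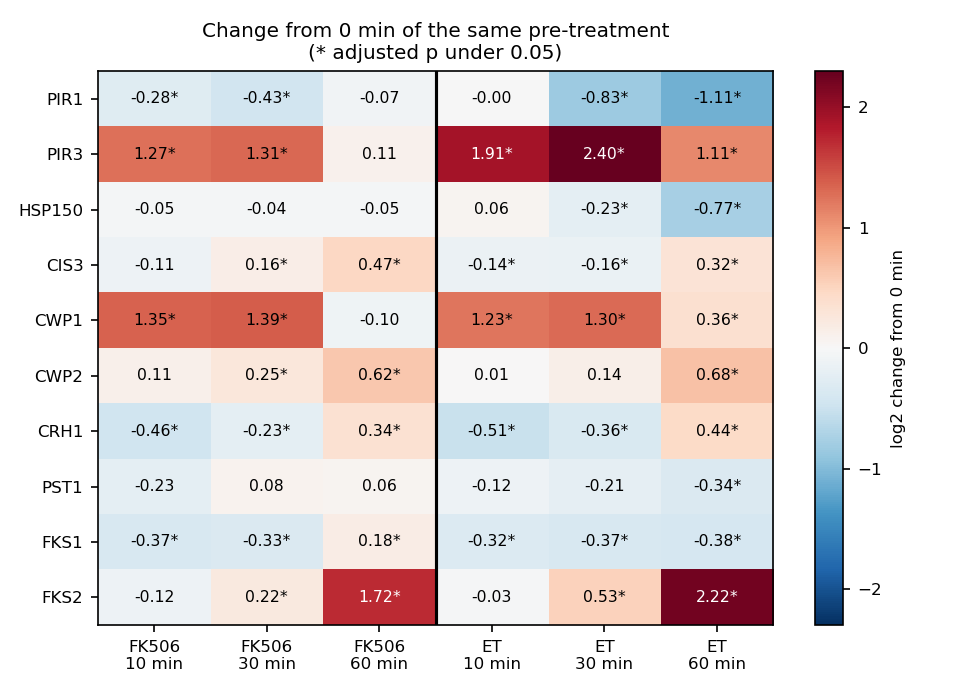
Log2 change from 0 minutes of the same pre-treatment (limma) for each gene, with FK506 at 10, 30 and 60 minutes on the left and ET on the right. Red is higher, blue is lower, and an asterisk marks an adjusted p under 0.05. In FK506 the strongest colours are FKS2 at 60 minutes (1.72) and CWP1 at 30 minutes (1.39), and in ET they are PIR3 at 30 minutes (2.40) and FKS2 at 60 minutes (2.22).

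The count of members called is set here beside the share of all genes called in the same direction. In FK506 cells 2 members were called higher and 3 lower at 10 minutes, where 24.4% of all genes tested were higher and 30.2% lower. At 30 minutes 5 were higher and 3 lower (24.5% and 27.5% of all genes), and at 60 minutes 5 were higher (13.1%) and 0 lower (15.7%). Without adjustment (limma, p under 0.05) the count of members lower in FK506 cells at 60 minutes was also 0. In ET cells 2 members were higher and 3 lower at 10 minutes (26.6% and 31.8% of all genes), 3 higher and 5 lower at 30 minutes (33.1% and 35.3%), and 6 higher and 4 lower at 60 minutes (33.6% and 34.7%). Without FK506 0 min replicate 2 the FK506 count at 30 minutes was 5 in place of 8 members. The median log2 change of the members at 60 minutes was 0.14 in FK506 and 0.34 in ET cells, beside -0.01 and 0.01 over all genes. Comparisons within a pre-treatment share their libraries at 0 minutes.

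The changes in FK506 cells were also set against those in ET cells, and the members' counts lay near the shares over all genes at 10 and 60 minutes. At 10 minutes 0 of the 10 members differed in their change (limma, and 0 at an unadjusted p under 0.05; edgeR and DESeq2 also called 0), beside 0.0645% of all genes higher and 0.0161% lower. At 30 minutes 1 member was higher, CIS3, and 0 lower, beside 17.8% and 14.0% of all genes. Without adjustment (p under 0.05) 2 members were higher and 2 lower, and edgeR and DESeq2 each called 3 members. At 60 minutes 4 members (PIR1, HSP150, PST1 and FKS1) were higher and 2 (CWP1 and FKS2) lower in FK506 than in ET cells, beside 27.9% and 24.0% of all genes. The median difference of the 10 members at 60 minutes was 0.05, against 0.01 over all genes. Of the members called lower at 60 minutes, CWP1 and FKS2 had both risen from 0 minutes in ET cells. Of those called higher, each of the 4 had fallen from 0 minutes in ET cells, and only FKS1 was called in FK506 cells.

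**Figure D4:**
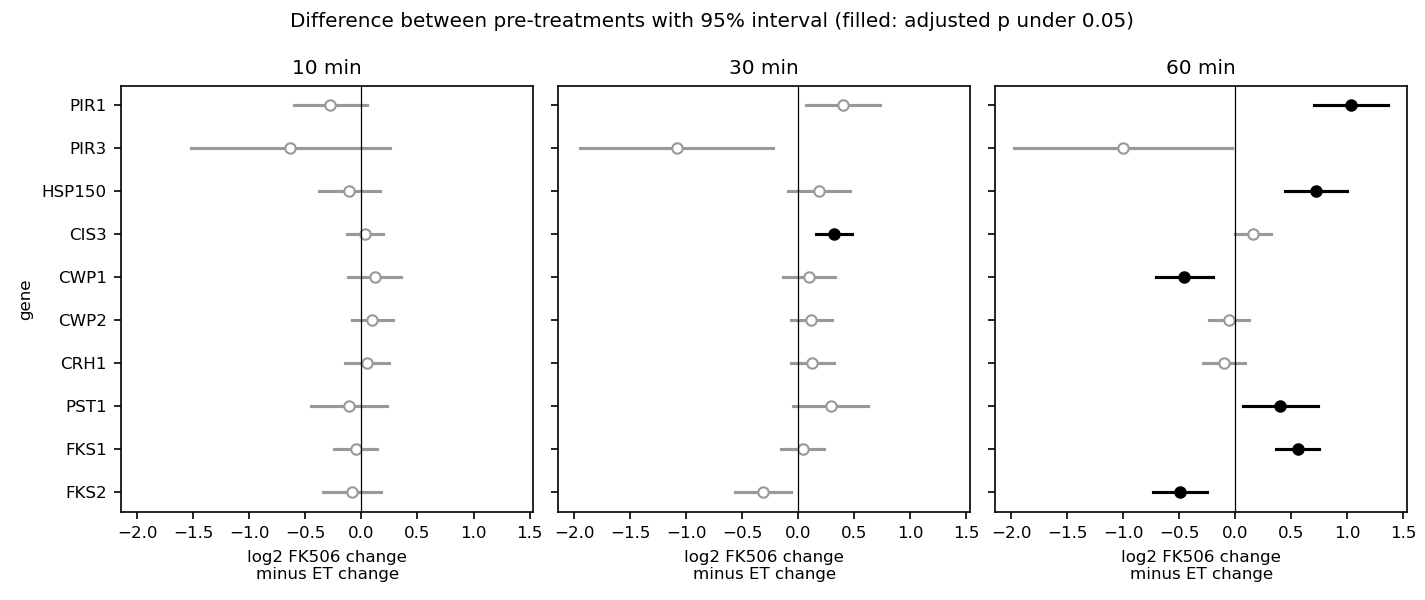
FK506 change minus ET change (log2, horizontal axis) at 10, 30 and 60 minutes for each gene, with points for the limma estimate and bars for its 95% interval. Filled points have an adjusted p under 0.05. At 60 minutes PIR1 (1.03), HSP150 (0.72), FKS1 (0.56) and PST1 (0.40) lie right of 0, and FKS2 (-0.49) and CWP1 (-0.46) left of it.

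Other wall genes were read from 5 lists of known members that hold none of the 10. Among 15 further mannoproteins 6 were higher, 5 lower and 4 not called for the FK506 change minus the ET change at 60 minutes, with a median log2 of -0.02. SPI1, a stress-induced anchored protein, had 34.9 and 22.9 CPM in FK506 and 137 and 113 CPM in ET cells at 60 minutes, and 18.0 to 24.4 CPM in all libraries at 0 minutes (difference -2.41). SVS1, a wall protein rich in serine, had 346 and 352 CPM in FK506 and 912 and 833 CPM in ET cells (difference -1.38). SED1, a major anchored wall protein, differed by 0.92, and ECM33, needed for wall structure and related to PST1, by 0.86. ECM33 had 1815 and 1959 CPM in FK506 and 1013 and 1124 CPM in ET cells at 60 minutes.

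Among 15 genes of glucan synthesis and remodelling 7 were higher, 5 lower and 3 not called, with a median of 0.33. UTR2, a homolog of CRH1, had 478 and 468 CPM in FK506 and 163 and 182 CPM in ET cells at 60 minutes, below the 909 to 1005 CPM of all libraries at 0 minutes, and differed by 1.55. GAS3, of the family of glucan elongating enzymes, differed by 1.09. SKN1, which acts in β-1,6-glucan synthesis, differed by -0.92, and EXG2, an exoglucanase, by -0.49. Of 10 genes of chitin synthesis and breakdown 1 was higher (BNI4, a scaffold for chitin synthase at the bud neck, 0.26), 5 were lower and 4 not called. CHS6, which takes part in export of chitin synthase to the cell surface, differed by -0.71, and GFA1, the first enzyme of the route to the chitin precursor, by -0.44.

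The cell wall integrity cascade had 3 of 18 genes higher, 6 lower and 9 not called. RLM1, the transcription factor named above, had 77.8 and 76.0 CPM in FK506 and 56.7 and 53.3 CPM in ET cells at 60 minutes and differed by 0.64. The kinase gene MKK1 differed by 0.52, SDP1, a phosphatase of Slt2, by -2.20, and RHO1, the GTPase that activates both glucan synthase and the cascade, by -0.53. RHO1 stood at 461 and 419 CPM in FK506 and 625 and 626 CPM in ET cells, against 345 to 358 CPM in all libraries at 0 minutes. Of 3 wall proteases of the yapsin family, MKC7 was higher (1.25), YPS1 lower (-0.51) and YPS3 not called. Shares of 27.9% higher and 24.0% lower over all genes stand beside each of these counts.

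**Figure D5:**
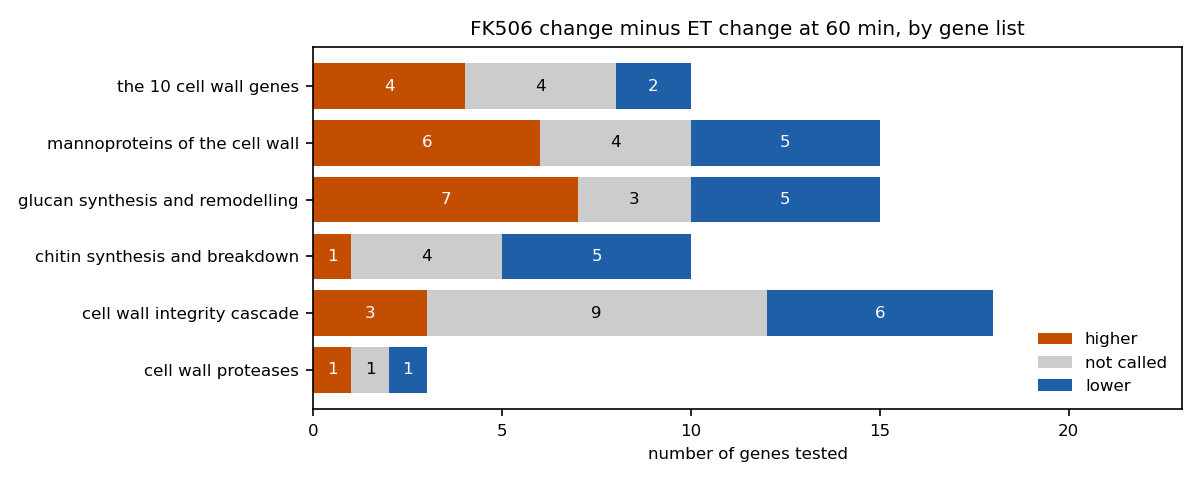
Number of genes called higher (orange, left), not called (grey) and called lower (blue, right) for the FK506 change minus the ET change at 60 minutes, for the 10 genes described here and for 5 lists of other wall genes. The 10 genes split into 4, 4 and 2, and the chitin list into 1, 4 and 5.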

How the data were processed

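The deposited table holds raw read counts per gene that the authors made from strand-specific, single-end reads of 50 bases, aligned with TopHat2 (version 2.1.1) to genome R64-1-1. The study's methods name HTSeq as the counter, whereas the submitters' processing notes name featureCounts and Subread 1.5.3. No column outside the 16 samples was present. Total counts were 11221758 to 11970166 per library. A count of 0 allows up to 3 counts, and this covers counting error only. Replicates of a group differed by more than sampling noise (chi-square per degree of freedom 5.61 to 11.8), so every library was kept as its own sample.

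Counts were filtered with filterByExpr by group (default minimum of 10 counts), scaled by TMM and fitted once over the 16 libraries with limma voom (limma 3.58.1, edgeR 4.0.16, R 4.3.3). Terms were group and replicate number, taken as the study's undefined batch, and duplicateCorrelation was blocked on the time course (correlation -0.117, 7 residual degrees of freedom). Each time was compared with 0 minutes of its pre-treatment, and FK506 changes with ET changes. P-values were Benjamini-Hochberg adjusted over 6206 genes, and genes under 0.05 were called. The 2 replicates of each time course are biological per the study's methods, which do not define the batch. The study took the correlation among samples of like condition and genotype, whereas here it was taken within a time course. Same-numbered deviations correlated across genes at -0.05 to 0.18 within a pre-treatment (12 pairs of groups) and -0.03 to 0.23 between pre-treatments (16 pairs). Not every pair was over 0.1, so the numbers were not shown to pair samples. The replicate term of the main fit still blocks on the number across both pre-treatments, and a fit without it is among the alternatives.

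Members, lists, motifs and tests were chosen with earlier results of these data known. Named were all 10 members and, from each list, up to 2 highest and 2 lowest called differences at 60 minutes. YPS2 is another name of MKC7 and was counted once. Motifs were searched on both strands of the 1000 bases before each start codon of R64, from the RefSeq assembly. A further motif is not reported here. The scripts were tested on simulated data. Alternatives were edgeR's quasi-likelihood test, DESeq2 1.42.0, no replicate block, a fixed effect for each time course, the correlation left out, RLE factors, raw library totals, no filter, and leaving out each library.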

Additional observations from a re-analysis of the deposited data

Results flagged for a closer look

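In 7 results the change from 0 minutes differed between the pre-treatments by the limma test of the difference itself. At 30 minutes this was CIS3, at 0.32 (log2 FK506 change minus ET change, adjusted p = 0.00469). At 60 minutes it was PIR1 at 1.03, HSP150 at 0.72, FKS1 at 0.56, PST1 at 0.40, CWP1 at -0.46 and FKS2 at -0.49. With same-numbered FK506 and ET replicates set against each other, both differences had the sign of the estimate in each of the 7. The numbers were not shown to pair samples. PST1 was the weakest, with same-numbered differences of 0.64 and 0.17. Its changes were 0.39 and -0.26 in FK506 replicates 1 and 2, and -0.25 and -0.43 in ET replicates 1 and 2. Another pairing need not keep its sign. Groups held 2 libraries each, too few to look for a library standing apart within a group.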

How the results depend on the processing

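Of 100 values (10 genes in 10 comparisons), 97 kept their direction and side of the threshold with edgeR, 94 with DESeq2, 96 with RLE factors, 96 without the correlation, 93 without the filter and 77 on raw library totals. With time courses as fixed terms 86 of 90 did so, since the comparison at 0 minutes could not be fitted. Over 16 fits that left out 1 library, 1473 of 1600 did. No cause of a move was tested.

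The replicate numbers were not shown to pair samples. Without the replicate block 96 of 100 values kept their side, and 4 lost their call: FKS2 in FK506 at 30 minutes (log2 0.22), FKS1 in FK506 at 60 minutes (0.18), CIS3 in ET at 10 minutes (-0.14) and the PST1 difference at 60 minutes (0.40). Genes called at 0 minutes then numbered 34, against 97 with it.

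With all 16 libraries, direction turned in the values below, none of them called on the turned side. On raw library totals these were HSP150 in FK506 at 10, 30 and 60 minutes (0.0028, 0.16 and 0.070), PIR1 (0.050) and CWP1 (0.027) in FK506 at 60 minutes, PIR1 (0.067) and FKS2 (0.037) in ET at 10 minutes and CIS3 in ET at 30 minutes (0.041). PIR1 in ET at 10 minutes also turned with DESeq2 (0.0046), RLE factors (0.0054) and no filter (0.025). Raw totals moved the median of all genes to 0.20 (FK506, 30 minutes), 0.12 (FK506, 60 minutes), 0.21 and 0.25 (ET, 30 and 60 minutes) and -0.11 (difference, 60 minutes). The share of calls that were higher became 71.1% in place of 47.1% and 73.5% in place of 45.5% (FK506, 30 and 60 minutes), 62.9% in place of 48.4% and 65.9% in place of 49.2% (ET, 30 and 60 minutes), 43.4% in place of 53.8% (difference, 60 minutes), 66.7% in place of 80.0% (difference, 10 minutes) and 64.3% in place of 42.3% (0 minutes).

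Members called for the difference at 30 minutes numbered 1, against 3 with edgeR, 3 with DESeq2, 3 with fixed time courses, 4 without the correlation, 2 on raw totals and 1 to 4 with a library left out. Those in FK506 at 30 minutes ranged from 5 to 8. Genes called for the difference at 10 minutes numbered 5, against 8 with edgeR, 18 with DESeq2, 8 without the correlation, 3 without the filter and 0 to 11 with a library left out. Genes called at 0 minutes numbered 60 with edgeR and 9 to 206 with a library left out.

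With a library left out, values that crossed 0 ranged as follows, and 1 was called on the turned side (PIR1 in FK506 at 60 minutes without FK506 60 min replicate 2, 0.21, limma adjusted p = 0.0387). In FK506 at 30 minutes HSP150 ran from -0.15 to 0.090 and PST1 from -0.049 to 0.21. In FK506 at 60 minutes PIR1 ran from -0.35 to 0.21, PIR3 from -0.16 to 0.36, HSP150 from -0.26 to 0.16 and PST1 from -0.14 to 0.27. In ET at 10 minutes PIR1 ran from -0.097 to 0.091, HSP150 from -0.054 to 0.16, CWP2 from -0.044 to 0.066 and FKS2 from -0.15 to 0.082. For the difference at 10 minutes HSP150 ran from -0.22 to 0.00037, CIS3 from -0.018 to 0.084, CWP1 from -0.0088 to 0.23, CRH1 from -0.0051 to 0.11, PST1 from -0.24 to 0.021, FKS1 from -0.13 to 0.030 and FKS2 from -0.20 to 0.030. At 30 minutes CWP1 ran from -0.031 to 0.21 and FKS1 from -0.080 to 0.14, and at 60 minutes CWP2 from -0.14 to 0.038. At 0 minutes PIR1 ran from -0.17 to 0.019, PIR3 from -0.12 to 0.87, HSP150 from -0.044 to 0.12, CWP2 from -0.090 to 0.094 and FKS2 from -0.079 to 0.14. Depth limits PIR3 most, at 31 to 248 counts per library.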

Other observations

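Neighbouring members kept different company within a library, in ratios that need no scaling. The convergent pair CIS3 and HSP150 had a ratio of CIS3 to HSP150 counts per kb of 1.12 and 1.31 in FK506 and 1.87 and 1.67 in ET libraries at 60 minutes, against 0.925 and 0.765 in FK506 and 0.919 and 0.751 in ET libraries at 0 minutes. The divergent pair PIR3 and PIR1 had a ratio of PIR3 to PIR1 of 0.0428 and 0.0408 in FK506 and 0.0892 and 0.0793 in ET libraries at 30 minutes, against 0.0148 and 0.0103 in FK506 and 0.00727 and 0.0111 in ET libraries at 0 minutes. The tandem pair CWP1 and CWP2 had a ratio of CWP1 to CWP2 of 0.0373 and 0.0338 in FK506 and 0.0305 and 0.0284 in ET libraries at 10 minutes, against 0.0154 and 0.0145 in FK506 and 0.0143 and 0.0111 in ET libraries at 0 minutes. These pairs were picked for their position, and the ratios were not tested.

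The 10 genes together took 1.00 and 1.04% of all counts in FK506 and 0.853 and 0.888% in ET libraries at 60 minutes. At 0 minutes they took 0.742 and 0.763% in FK506 and 0.706 and 0.730% in ET libraries. These are shares of raw totals, without TMM scaling. The TMM factors were 0.9227 and 0.9481 in FK506 and 0.9101 and 0.9245 in ET libraries at 0 minutes. At 60 minutes they were 1.002 and 1.035 in FK506 and 1.057 and 1.102 in ET libraries, so scaling makes both rises smaller. FKS1 and CWP2 had the most counts among the members, and the summed share was not tested.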
